A study of Mus musculus with 26 samples.

Results

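The clustered protocadherins are 58 genes on mouse chromosome 18, and their promoters were examined for open chromatin in D1 and D2 medium spiny neurons (MSNs) across 4 cocaine states. The rule for membership was set with earlier results of these data known, but no measured value entered it. Members were chosen by gene symbol and chromosome alone, as the alpha, beta and gamma cluster genes in the deposited peak lists and in RefSeq. They comprise 14 alpha, 22 beta and 22 gamma genes in a RefSeq table for the build (mm10, GRCm38) with 21883 protein-coding genes, a number that counts all members except the pseudogene Pcdhgb8. The authors' lists named 17 of them at 82 of 399461 peaks, and 6 to 19 of those 82 peaks fell in each list. The assay was ATAC-seq, which uses a transposase to cut and tag accessible DNA. Nuclei came from mouse brain, which the series title narrows to the nucleus accumbens, a ventral striatal region that responds to rewarding drugs. The states were SS (baseline), SC (acute cocaine), CS (chronic cocaine and then a prolonged withdrawal) and CC (relapse to cocaine). In the order SS, SC, CS and CC, which is kept below wherever 4 values are given for the D1 or the D2 lists, the groups held 2, 4, 4 and 4 D1 libraries and 2, 1, 8 and 1 D2 libraries. Doses, times, strain, age and the means of sorting the nuclei are not given in the sources used here.

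Clustered protocadherins are cell-surface adhesion proteins. Neurons that carry the same combination of them recognise each other as self, which lets branches of one cell avoid each other. Each alpha and gamma variable exon has its own promoter and is spliced to constant exons shared by its cluster, while each beta gene is a single exon. Promoters of most variable exons are chosen at random in single neurons, with CTCF, cohesin and DNA methylation taking part, whereas the C-type exons at the ends of the alpha and gamma clusters (Pcdhac1, Pcdhac2, Pcdhgc3, Pcdhgc4 and Pcdhgc5) are used more uniformly. The remaining variable exons are called alternate exons below, and number 12 in alpha and 19 in gamma. No member sequence is printed, since the reference tables used here held none.

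Each group has 1 peak list made from all its libraries, so values carry no replicate error and no p-value, and each difference describes these lists. The lists differ in length: 28579, 28321, 48469 and 77103 peaks in the D1 lists and 61818, 58810, 27917 and 68444 in the D2 lists. They also fall into 2 sets by peaks on patch scaffolds, with 71 to 144 in D2 CS and all D1 lists but D1 SS, and 4 to 7 in the other 4. Chromosome 18, which holds all members, took 3.74% to 3.91% of peaks in the first set and 4.17% to 4.30% in the second. Read totals are not in the lists. Promoters of all 7 D1 markers, Drd1 included, had a peak in each D1 list, and those of all 6 D2 markers in each D2 list. These marker promoters separated the labelled cell types only in part, because 6 or 7 D1 markers also had a peak in each D2 list and 1, 4, 5 and 6 D2 markers in the D1 lists. Among the D2 lists the D1 marker Pdyn had a peak in D2 CC alone. Among the D1 lists the D2 marker Adora2a had one in D1 CC alone, and Drd2 had one in D1 CS and D1 CC. Of 6 oligodendrocyte lineage markers, 1, 2, 4 and 5 had a peak in the D1 lists and 3, 3, 2 and 3 in the D2 lists, with Olig2 in none. Astrocyte markers had a peak only at Slc1a3 in D1 CC, microglia markers had none, and the part of these markers in the results below was not tested.

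A promoter was counted as having a peak when any deposited peak reached within 1 kb of the member's RefSeq start. By this measure 18 members had a peak in at least 1 list, 4 had one in all 8 lists (Pcdhac1, Pcdhac2, Pcdhgc3 and Pcdhgc5), and 40 had one in none. The number of members with a promoter peak was 4, 4, 9 and 16 of 58 in the D1 lists and 6, 9, 4 and 11 of 58 in the D2 lists. Among 21605 other protein-coding genes, with every annotated start searched, 46.6%, 53.3%, 60.1% and 62.7% had a promoter peak in the same D1 lists and 57.7%, 56.1%, 54.6% and 58% in the D2 lists. With the starts that the authors assigned searched as well, Pcdhga4 is added to the members in each list. This gives 5, 5, 10 and 17 in D1 and 7, 10, 5 and 12 in D2. Other genes were also searched at further starts from a promoter table that held no member, so the searches are not fully alike. At the most, in D1 CC, the share of members was 29.3%, with an exact binomial (Clopper-Pearson) 95% interval of 18.1% to 42.7% that covers counting error only. In every list the share of members lay below the share of other genes, and also below that of 429 other genes on chromosome 18, which ran from 61.3% in D1 SS to 76% in D1 CC. A peak comes from many nuclei, so an opening in fewer nuclei and a weaker opening in each cannot be told apart.

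The low share came from the alternate and beta exons and not from the C-type exons. C-type exons had a promoter peak at 5 of 5 in D1 CS, D1 CC and D2 CC and at 4 of 5 in the other 5 lists. Alternate gamma exons had one at 0, 0, 4 and 9 of 19 in the D1 lists and at 2, 5, 0 and 6 of 19 in the D2 lists. Among the 12 alternate alpha exons only Pcdha12 had one, and among the 22 beta genes only Pcdhb1, both in D1 CC alone. The matrix of promoter peaks by member and list shows filled rows for the C-type exons other than Pcdhgc4, which is filled in 3 lists. The alternate and beta exons show a scatter confined to gamma, apart from the cells of Pcdha12 and Pcdhb1.

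**Figure D1:**
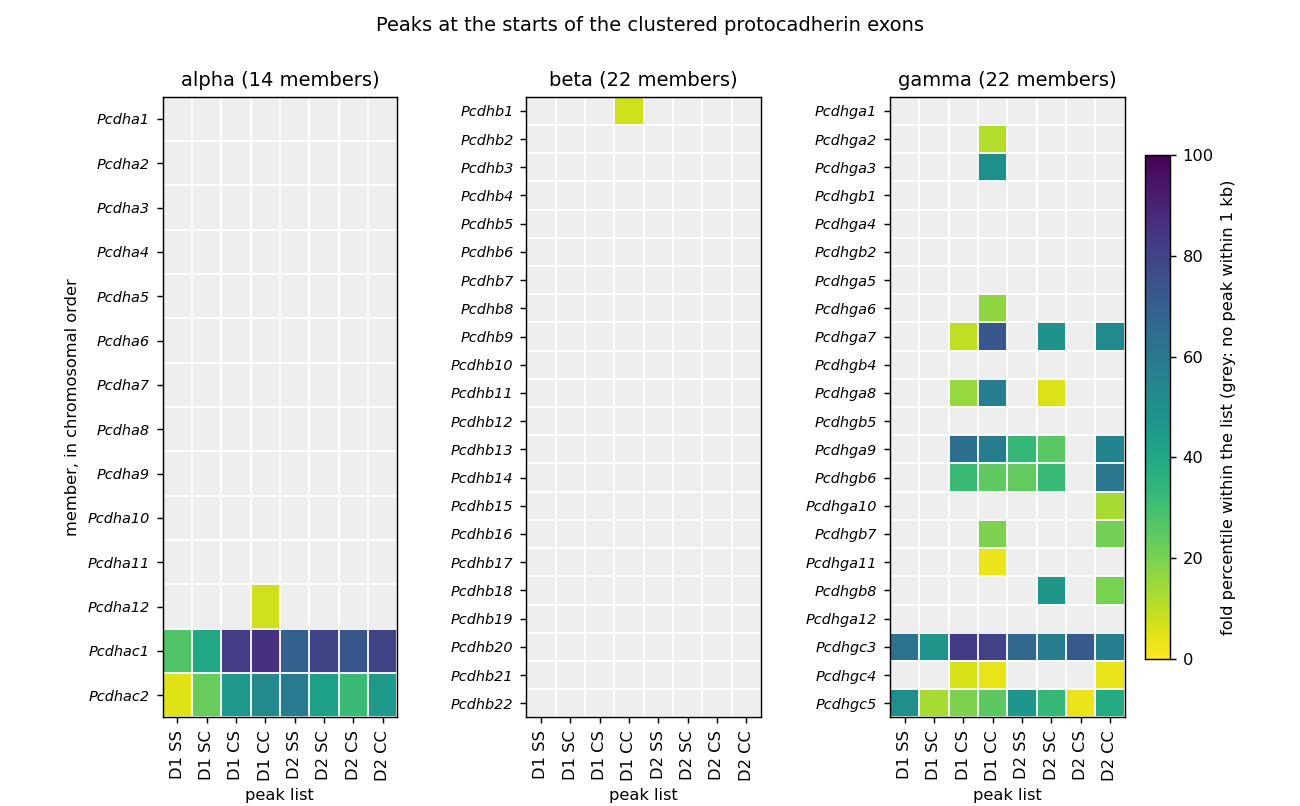
Promoter peaks of the 58 members (rows, in chromosomal order within each cluster) in the 8 peak lists (columns); colour gives the percentile of the peak's fold enrichment among all peaks of its own list, with the highest taken where a list had more than 1 peak, and grey means no peak within 1 kb. Pcdhac1, Pcdhac2, Pcdhgc3 and Pcdhgc5 are filled in all 8 lists, and 40 members are grey throughout.

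**Figure D2:**
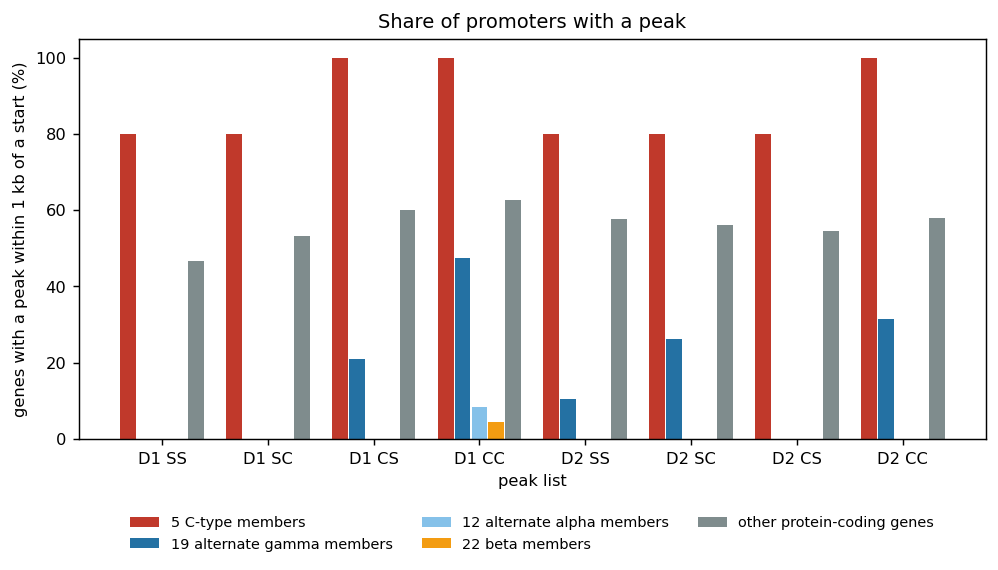
Percentage of genes with a peak within 1 kb of a start (y axis, from 0) in each of the 8 lists, for 5 C-type, 19 alternate gamma, 12 alternate alpha and 22 beta members, counted at the RefSeq start, and for 21605 other protein-coding genes, counted at any start. C-type bars stand at 80% or 100%, alternate gamma bars run from 0% to 47.4%, and the other genes from 46.6% to 62.7%.

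The C-type promoters were followed list by list through the percentile of each peak's fold enrichment. This fold is the authors' ratio of signal over the peak caller's background and is not scaled between lists, so a percentile gives the rank of a peak within its own list only. A longer list adds weak peaks below a given peak, so percentiles from lists of different lengths show no change between groups and are given as a description of each list. Where a promoter had 2 peaks in a list, the higher percentile is given. Pcdhac1, the first C-type exon of alpha (start chr18:37090136), reached percentiles of 27.3, 40.5, 81.9 and 85.6 in the D1 lists and of 69.5, 79.0, 73.1 and 79.6 in the D2 lists. The peak was 210 and 273 bp wide in D1 SS and D1 SC and 544 to 709 bp wide in the other 6 lists. Pcdhac2, the last variable exon of alpha (start chr18:37143678), had percentiles of 4.79, 23.1, 46.8 and 53.0 in the D1 lists and 58.9, 43.3, 31.8 and 46.2 in the D2 lists. Its peak in D1 SS covered 212 bp and was centred 816 bp past the start, while in D1 CC it covered 1586 bp across the start.

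Pcdhgc3 (start chr18:37806410), the first C-type exon of gamma, had a peak in all 8 lists. Its percentiles were 62.2, 48.4, 82.8 and 80.5 in the D1 lists and 67.0, 57.7, 71.8 and 56.8 in the D2 lists, and in D1 SC the promoter carried 2 separate peaks of 205 and 245 bp. Pcdhgc5 (start chr18:37819546), the last variable exon of gamma, stood at 50.1, 13.0, 19.8 and 25.1 in the D1 lists and 47.5, 32.8, 3.01 and 38.7 in the D2 lists. By q-value in place of fold, the main Pcdhgc5 peak stood higher in each list, at percentiles of 29.3 in D2 CS to 77.4 in D1 CC. Pcdhgc4 (start chr18:37815079) was the exception among the C-type exons, with a narrow peak of 201, 216 and 200 bp in D1 CS, D1 CC and D2 CC and none elsewhere. These 3 peaks stood at fold percentiles of 5.93, 3.37 and 3.79, near the bottom of their lists by fold. By q-value they stood higher, at percentiles of 35.1, 36.9 and 16.2.

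The 11 alternate gamma exons with a promoter peak lay between Pcdhga2 and Pcdhgb8 and had 26 such peaks. Pcdhga9 and Pcdhgb6, which are neighbours, were the most frequent, each with a peak in 5 lists, which were D1 CS, D1 CC and every D2 list but D2 CS. Pcdhga9 (start chr18:37736936) had a D1 CS peak at percentile 62.9 and a D1 CC peak at 58.2, while its D2 peaks stood at 33.5 (SS), 25.4 (SC) and 55.1 (CC). Pcdhgb6 (start chr18:37742094) stood at 31.7 (CS) and 24.3 (CC) in D1 and at 24.2 (SS), 32.8 (SC) and 60.2 (CC) in D2. The 3 lists that lacked both, D1 SS, D1 SC and D2 CS, were the 3 shortest. In these 3 lists no alternate exon of either cluster and no beta gene had a promoter peak.

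Pcdhga7 had a peak in 4 lists, at percentiles of 9.54 in D1 CS, 72.9 in D1 CC, 48.9 in D2 SC and 52.0 in D2 CC. Pcdhga8 had one in 3 lists, at 15.5 in D1 CS, 58.2 in D1 CC and 5.43 in D2 SC, and the first and last of these were named by the authors for Gm37165, a transcript on the opposite strand. Accessibility has no strand, so such a peak cannot be given to one of the 2 starts. Pcdhgb7 had peaks in D1 CC (19.5) and D2 CC (20.8), and Pcdhgb8, a transcribed pseudogene in RefSeq, in D2 SC (47.2) and D2 CC (20.1). Pcdhga2, Pcdhga3, Pcdhga6 and Pcdhga11 had one in D1 CC alone, at 11.5, 50.1, 16.7 and 2.95, and Pcdhga10 in D2 CC alone, at 13.1. The Pcdhga11 peak was named for Gm26672 on the opposite strand. The 8 alternate gamma exons with no promoter peak in any list were Pcdhga1, Pcdhgb1, Pcdhga4, Pcdhgb2, Pcdhga5, Pcdhgb4, Pcdhgb5 and Pcdhga12.

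Promoter peaks of alternate gamma exons are described here by width and position, which the choice of members did not use. These peaks were narrow, with a median width of 272 bp (200 to 842 bp). The median was 568 bp (200 to 1586 bp) for the 39 C-type peaks, and list medians were 584 to 766.5 bp for all promoter peaks. No list holds a peak under 200 bp, and widths were not compared at equal peak strength. Their centres lay downstream of the RefSeq start, inside the transcribed exon, for 24 of 26 peaks (92.3%), with a median of 125.5 bp past the start. The 2 exceptions were both at Pcdhgb8. C-type peaks had 51.3% of centres downstream, and all promoter peaks 45.2% to 52.6% by list, measured from the authors' starts. The form was not particular to alternate gamma exons. The 3 peaks of the C-type exon Pcdhgc4 were 200 to 216 bp wide, with centres 84 to 432 bp past the start. Median offsets were 477 bp at Pcdhac2 and 115 bp at Pcdhgc3, but -151 bp at Pcdhac1 and -161 bp at Pcdhgc5. The Pcdha12 peak was 228 bp wide and centred 207 bp past the start. Within their lists the alternate gamma peaks had a median fold percentile of 28.6 (2.95 to 72.9), with 8 of 26 above the middle of the list, and the C-type peaks 46.2. The peaks of one exon in several lists are repeated views of the same site and not independent.

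The alternate alpha and beta exons were nearly empty. The Pcdha12 peak in D1 CC covered 228 bp at percentile 7.16, and the authors named it for Gm10545, which is annotated on the opposite strand. The Pcdhb1 peak in D1 CC covered 309 bp, ended 28 bp before the start of the gene and had the same percentile of 7.16. Between this peak and the promoter of Taf7 no list had a peak over chr18:37264971-37643908, a stretch of 379 kb that holds all 22 beta starts and Slc25a2, a mitochondrial transporter gene. Over the first 11 alpha exons, Pcdha1 to Pcdha11, a further 212 kb (chr18:36802209-37013909) had no peak in any list. The exons of a cluster resemble each other in sequence, and the treatment of reads that match several places is not given in the sources used here, so an absent peak in these exons is uncertain.

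The map of the locus shows where peaks stood outside the exon starts. All peaks from 5 kb before Pcdha1 to beyond the gamma constant exons merged into 41 regions, of which 21 lay at a member promoter and 20 elsewhere. Of those elsewhere, 7 were found in all 8 lists (35%), against 4 of the 21 at promoters (19%) and 18.2% of 94493 merged regions over all chromosomes. These 7 include the promoter of the neighbouring gene Taf7 and regions within the neighbouring gene Diaph1. They also include a region that the authors placed at the promoter of a Pcdhga4 transcript. The 35% is therefore not a share of protocadherin elements alone. The 14 regions at alternate or beta promoters included none in all 8 lists, and 8 of them were in 1 list only.

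**Figure D3:**
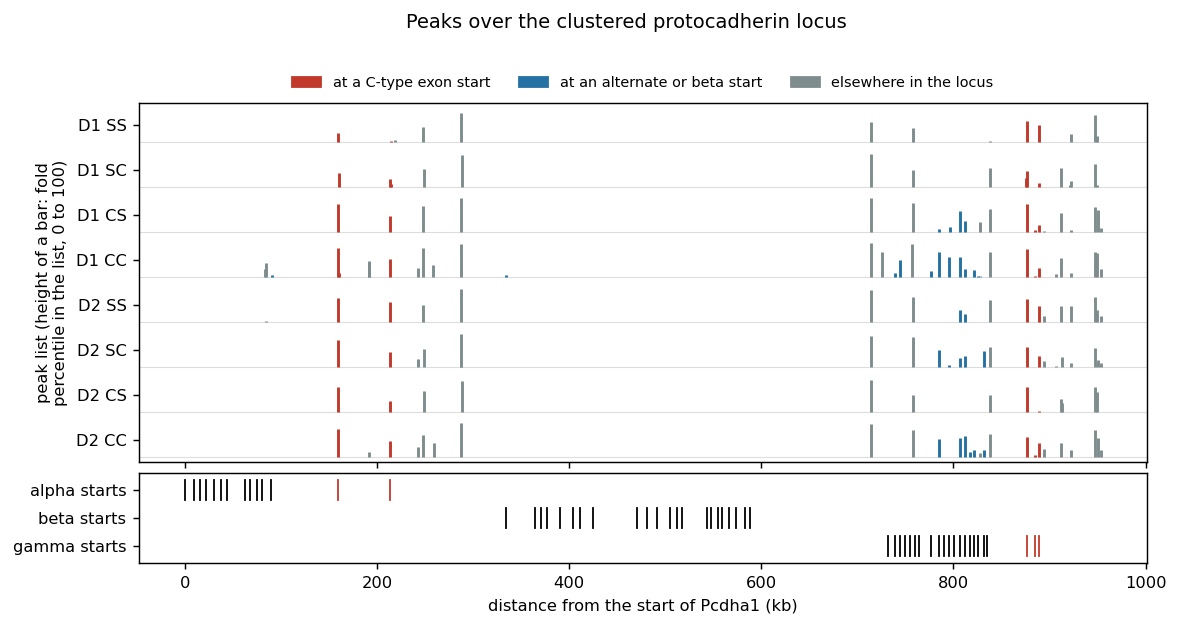
Peaks of the 8 lists over the locus (x axis, distance from the start of Pcdha1 in kb), each drawn as a bar whose height is its fold percentile in its own list, with the starts of the alpha, beta and gamma members below (C-type starts in red). Bars at C-type starts recur in every list, blue bars at alternate starts are absent from D1 SS, D1 SC and D2 CS, and the beta starts stand in a stretch without bars apart from 1 at Pcdhb1 in D1 CC.

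The highest-ranking element of the locus that is not at an exon start or the Taf7 promoter lay between the alpha and beta clusters, at chr18:37217311-37218638. It was 28.4 kb past the end of the alpha constant exons and 46.4 kb before Pcdhb1, and the authors named it a gene body peak of Gm37388, a gene model that spans alpha to gamma. Its main peak stood at percentiles of 84.3, 94.1, 98.3 and 97.9 in the D1 lists and of 97.8, 95.5, 89.8 and 97.3 in the D2 lists. A region at chr18:37178178-37178974, inside the alpha transcription unit and named for the opposite-strand transcript Gm10544, was also in all 8 lists, from 45.3 in D1 SS to 84.9 in D1 CC. Since all 8 lists had both regions, their presence cannot be related to that of alternate exon peaks.

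In gamma, chr18:37687273-37688019 had a peak in all 8 lists, 2.41 kb past the RefSeq start of Pcdhga4 and within the promoter window of a short Pcdhga4 transcript that the authors used. Its percentiles were 41.6, 49.5, 86.3 and 96.2 in the D1 lists and 71.5, 88.6, 48.2 and 79.1 in the D2 lists. A region 2.68 kb past the start of Pcdhga12, named for the opposite-strand transcript Gm26672, was in all 8 lists too, with its best peak between 3.58 in D1 SS and 72.4 in D1 CC. Downstream of gamma, a region that begins 255 bp past the end of the last constant exon was found in 7 lists and not in D1 SS, and 2 regions within the neighbouring gene Diaph1, 35.1 and 37.9 kb past that end, were in all 8. The first of these Diaph1 regions had percentiles between 55.4 and 78.7. The promoter of Taf7, a general transcription factor gene between beta and gamma, ranked from 59.1 in D1 SS to 99.8 in D1 CC.

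The cocaine states were then compared within D1 neurons, each as the members with a promoter peak in only 1 of 2 lists beside the same share of the other genes. Comparisons with baseline share the D1 SS list. After acute cocaine no member was gained or lost against baseline (4 in both lists), while 7.61% of other genes had a peak only in D1 SC and 0.94% only in D1 SS. The share among genes without a peak in the other list is given as well. In prolonged withdrawal 5 members had a peak only in D1 CS (Pcdhga7, Pcdhga8, Pcdhga9, Pcdhgb6 and Pcdhgc4; 8.62% of members, against 13.7% of other genes) and none only in D1 SS (0.143%). Of genes without a peak in D1 SS, 9.26% of 54 members and 25.6% of other genes had one in D1 CS. In relapse 12 members had a peak only in D1 CC (20.7% of members, against 16.1% of other genes) and none only in D1 SS (0.0417%). These 12 were the same 5 and Pcdha12, Pcdhb1, Pcdhga2, Pcdhga3, Pcdhga6, Pcdhgb7 and Pcdhga11. Of the genes that had no peak in D1 SS, 22.2% of 54 members and 30.2% of the other genes had one in D1 CC, so the members' gain was not above that of other genes without a peak.

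Relapse against withdrawal gave 7 members with a peak only in D1 CC (12.1% of members, against 3.43% of other genes) and none only in D1 CS (0.884%). Among genes without a peak in D1 CS, the shares were 14.3% of 49 members and 8.60% of other genes. All 7 were alternate or beta exons, and of these only Pcdhga3 and Pcdhgb7 had a peak at a q of at most 1e-05. D1 CC is the longer list, at 77103 peaks against 48469. Among the 27917 strongest peaks of each list by q-value, alternate and beta promoters with a peak numbered 0 in D1 CC and 1 in D1 CS. The part of list length was not tested. Relapse against acute cocaine gave the same 12 members as relapse against baseline, with 9.47% of other genes only in D1 CC and 0.0787% only in D1 SC. Among genes without a peak in D1 SC the shares were 22.2% of members and 20.3% of other genes, which is near the background. Withdrawal against acute cocaine gave the 5 members named above in D1 CS, with 7.13% of other genes only in D1 CS and 0.287% only in D1 SC. Among genes without a peak in D1 SC they made 9.26% of members, below the 15.3% of other genes. The last 3 comparisons lie within the set of lists rich in patch scaffold peaks, and those with D1 SS cross the sets, so that set and state cannot be told apart in the latter.

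Comparisons with baseline in D2 neurons likewise share the D2 SS list. Acute cocaine added 3 members to those at baseline, Pcdhga7, Pcdhga8 and Pcdhgb8, with none lost. This was 5.17% of members against 0.866% of other genes only in D2 SC, while 2.47% of other genes, and no member, had a peak only in D2 SS. Of genes without a peak in D2 SS, 5.77% of 52 members and 2.05% of other genes had one in D2 SC. The D2 SC list is the shorter of the pair, and the part of list length was not tested. Among the 27917 strongest peaks of each list by q-value, neither list had an alternate or beta promoter with a peak. The Pcdhga8 peak in D2 SC was weak, at fold percentile 5.43 and a q-value of 0.00114, and was named for Gm37165. Relapse added 5 members to baseline, Pcdhga7, Pcdhga10, Pcdhgb7, Pcdhgb8 and Pcdhgc4 (8.62% of members, against 1.61% of other genes), and lost none (1.34%). Of genes without a peak in D2 SS, 9.62% of 52 members and 3.80% of other genes had one in D2 CC. Relapse against acute cocaine gave Pcdhga10, Pcdhgb7 and Pcdhgc4 only in D2 CC, where the share of other genes was 2.56%, and Pcdhga8 only in D2 SC, where it was 0.69%. Among genes without a peak in the other list these were 6.12% of 49 members against 5.83% of other genes, and 2.13% of 47 members against 1.64%. These 3 comparisons lie within 1 set of lists, but D2 SC and D2 CC each rest on 1 library and D2 SS on 2.

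The D2 withdrawal list had fewer members than any other D2 list. Pcdhga9 and Pcdhgb6 had a peak only in D2 SS (3.45% of members, against 4.97% of other genes), and no member had one only in D2 CS (1.87%). Of genes without a peak in D2 CS, 3.70% of members and 10.9% of other genes had one in D2 SS. Against D2 CC, 7 members lacked a peak in D2 CS (Pcdhga7, Pcdhga9, Pcdhgb6, Pcdhga10, Pcdhgb7, Pcdhgb8 and Pcdhgc4; 5.34% of other genes) and none had one only in D2 CS (1.97%). Against D2 SC, 5 members lacked one in D2 CS (4.05%) and none had one only there (2.55%). Both were near the background among genes without a peak in D2 CS, where 13.0% of members and 11.8% of other genes had one in D2 CC, and 9.26% and 8.92% in D2 SC. The D2 CS list is the shortest of the 8 although it comes from 8 libraries, and it is in the other set from the remaining D2 lists, so state and set cannot be told apart here.

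Between cell types, baseline gave Pcdhga9 and Pcdhgb6 only in D2 SS (11.2% of other genes) and no member only in D1 SS (0.106%). After acute cocaine 5 members, Pcdhga7, Pcdhga8, Pcdhga9, Pcdhgb6 and Pcdhgb8, had a peak only in D2 SC (4.65%), and none only in D1 SC (1.84%). In withdrawal 5 members, Pcdhga7, Pcdhga8, Pcdhga9, Pcdhgb6 and Pcdhgc4, had one only in D1 CS (6.18%), and none only in D2 CS (0.653%). In relapse Pcdha12, Pcdhb1, Pcdhga2, Pcdhga3, Pcdhga6, Pcdhga8 and Pcdhga11 had one only in D1 CC (5.37%), and Pcdhga10 and Pcdhgb8 only in D2 CC (0.667%). Shares were also taken among genes without a peak in the other cell type. There the members' shares were below those of other genes at baseline (3.70% and 21.0% in D2 SS) and in withdrawal (9.26% and 13.6% in D1 CS). After acute cocaine the members' share was near the background (9.26% and 9.96% in D2 SC). In relapse the shares of members and other genes were 14.9% and 12.8% in D1 CC, and 4.76% and 1.79% in D2 CC. The acute cocaine and relapse comparisons cross the sets of lists rich and poor in patch scaffold peaks, so set and cell type cannot be told apart in them. D2 SC and D2 CC also rest on 1 library each, against 4 each for D1 SC and D1 CC. Over the 16 pairs of lists, the longer list had more members with a promoter peak in 14, the shorter in 1 (D2 SC against D2 SS), and D1 SC and D1 SS had the same number.

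Because of this, each list was reduced to its 27917 strongest peaks by q-value, the length of the shortest. All 8 lists then had 4 C-type promoters with a peak, Pcdhac1, Pcdhac2, Pcdhgc3 and Pcdhgc5. Of the 53 alternate and beta promoters 1 remained, Pcdhga9 in D1 CS, and none in the other 7 lists. Other genes kept a promoter peak at 46.3%, 53.1%, 53% and 52.1% in the D1 lists and at 46.9%, 45.4%, 54.6% and 45.5% in the D2 lists. The number of C-type promoters with a peak was thus the same in all 8 lists. Nearly all alternate promoter peaks ranked by q-value below the 27917 strongest peaks of their lists. By fold the ranking differs, since 8 of 26 alternate gamma peaks stood above the middle of their list. The covered length was not the same: alpha peaks, which are all at or in C-type genes, covered 622, 835, 1954 and 2295 bp in the D1 lists and 1766, 1630, 1273 and 1913 bp in the D2 lists at equal length, with no replicate error. At the deposited lengths D1 CS (48469 peaks) had 4 alternate and beta promoters with a peak, and D2 SS (61818 peaks) had 2. These lists differ in cell type, state, number of libraries and set as well as in length. The part of each in the counts was not tested.

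**Figure D4:**
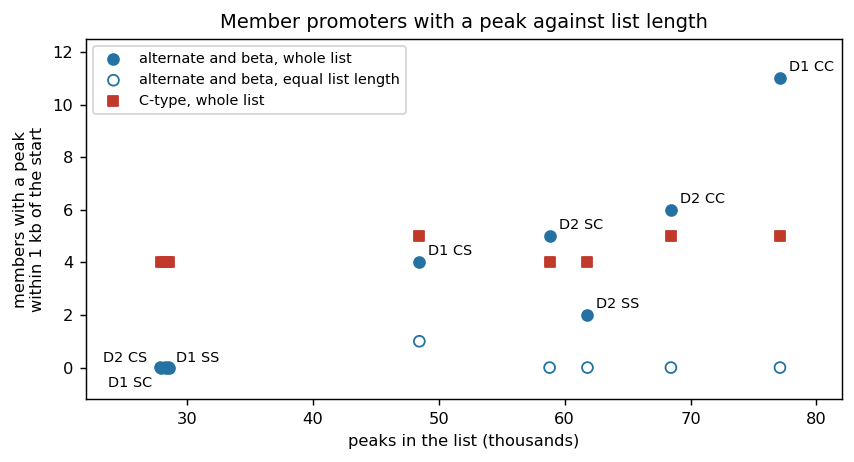
Members with a peak within 1 kb of the start (y axis) against the number of peaks in the list (x axis), for alternate and beta exons in the whole lists (filled circles), the same in the 27917 strongest peaks of each list (open circles) and C-type exons in the whole lists (squares). Filled circles run from 0 in the 3 shortest lists to 11 in D1 CC, open circles stay at 0 or 1, and squares at 4 or 5.

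The 82 peaks that the authors named for members were 53 proximal promoter, 18 within 1 kb and 11 gene body peaks by their classes. Of these, 63 lay within 1 kb of a member's RefSeq start, 8 were the Pcdhga4 region, 7 the region past the end of gamma that the authors gave to Pcdhgc5, and 4 were gene body peaks of Pcdhac1 and Pcdhac2. Together they covered 2162, 3074, 5630 and 10052 bp in the D1 lists and 5580, 5360, 2959 and 7670 bp in the D2 lists, with mean widths of 309 bp in D1 SS to 698 bp in D2 SS. Per 10 kb of peak in the whole list this was 1.52, 2.22, 2.26 and 2.38 bp in D1 and 1.61, 1.68, 2.16 and 1.96 bp in D2. Gamma held most of it in every list, from 1540 bp in D1 SS to 6700 bp in D1 CC, alpha between 622 bp in D1 SS and 3043 bp in D1 CC, and beta 309 bp in D1 CC alone. The median fold percentile over member peaks lay between 27.3 in D1 SS and 53.2 in D2 SS.

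Named peaks of the members were found in full in some longer lists, but not in all of them. All 8 D1 SC peaks were found in D1 CS and D1 CC, by an overlap of at least 1 bp. All 8 D2 SS peaks were found in D2 SC, which is shorter than D2 SS, and in D2 CC. Over all peaks of the list these shares were 94.0% and 98.9% for D1 SC, and 82.1% and 89.4% for D2 SS. Of 7 D1 SS peaks, 5 (71.4%) were found in the longer D2 SS list, against 98.1% of all D1 SS peaks. From a longer list to a shorter one, D1 SS held 5 of the 19 D1 CC peaks (26.3%), against 35.5% of all D1 CC peaks and 56.4% of its promoter peaks. Of 14 D2 CC peaks, 8 (57.1%) were found in D2 SS, against 80.05% of all peaks and 91.3% of promoter peaks. In reverse, 6 of 7 D1 SS peaks (85.7%) were found in D1 CC, against 97.4% of all D1 SS peaks and 99.7% of its promoter peaks. The D1 SS peak without a match there was a gene body peak of 200 bp in Pcdhac2, which no other list had.

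Genes that act with the clustered protocadherins, picked by name, had promoter peaks in nearly every list. Among other protein-coding genes the share with a promoter peak ran from 46.6% in D1 SS to 62.7% in D1 CC. The difference from these short gene lists was not tested. Of 14 regulators of the clusters, among them Ctcf, the cohesin subunits Rad21, Smc1a, Smc3, Stag1 and Stag2, and the silencing factor Smchd1, all had a peak in 6 lists. The exceptions were the DNA methyltransferase Dnmt3b, without one in D1 SS and D1 SC, and the histone methyltransferase Setdb1, without one in D1 SS. Of 11 signalling partners, such as the WAVE complex genes Wasf1 and Cyfip2 and the kinases Ptk2 and Ptk2b, 1 lacked a peak, the receptor kinase Ret, in D1 SS and D2 CS. All 10 non-clustered protocadherins, such as Pcdh9 and Pcdh10, had a peak in every list except Pcdh20, which lacked it in D1 SC and D2 CS. Among 5 protein-coding neighbours Taf7, Diaph1, Hdac3 and Zmat2 had one in all 8 lists and Slc25a2 in none. Other gene clusters differed from each other: 0 to 4 of 39 Hox genes had a promoter peak by list, and 33 to 50 of 52 replication-dependent histone genes, with 5 of 57 left out because their strand is not known.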

How the data were processed

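The 26 ATAC-seq libraries are deposited as 1 peak list per group. The submitters' processing notes name cutadapt, HISAT, SAMtools, MACS2 and the build mm10; versions, roles and whether libraries were pooled are not given in the sources used here. Each peak's fold, a ratio over background, and its q-value were deposited by the authors; neither is scaled between lists, and the lists have 0 columns per library. Gene names, classes and distances are also the authors'. Patch and unplaced scaffolds were left out.

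Starts came from RefSeq (GRCm38). The lists name 17 members, all on the plus strand; the other 41 were taken as plus. Other genes were called at any annotated start, and 221 of unknown strand with a peak at an end were left out. Fold percentiles are ranks within a list. Alternatives were windows of 250 bp and 3 kb, the authors' gene names, a q of at most 1e-05, equal list length, sharing by a peak within 1 kb or a reciprocal overlap of 50%, and ranks by q or among promoters. Values are given for every member with a peak and for all C-type members; regulators, partners, neighbours and non-clustered protocadherins that lack a peak are named, and Hox, histone and marker genes are mostly given as counts. Members, lists and this rule were chosen with earlier results of these data known. In simulated data 80 of 80 open promoters were recovered and 0 of the rest of 200 wrongly called. Software: matplotlib 3.10.9, scipy 1.17.1, pandas 2.3.3, numpy 2.4.6 and Python 3.11.15.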

Additional observations from a re-analysis of the deposited data

Results flagged for a closer look

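Member promoters with a peak differed in opposite directions between baseline and withdrawal in the 2 cell types. Withdrawal minus baseline was 5 in D1 neurons (9 against 4 of 58) and -2 in D2 neurons (4 against 6). Other protein-coding genes differed in the same directions, with a promoter peak at 46.6% in D1 SS and 60.1% in D1 CS, and at 57.7% in D2 SS and 54.6% in D2 CS. The difference between the cell types was not tested, since each group has 1 list. The list grew from 28579 to 48469 peaks in D1 and shrank from 61818 to 27917 in D2, both comparisons cross the sets of lists rich and poor in patch scaffold peaks, and at equal list length the counts were 4 and 5 in D1 and 4 and 4 in D2.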

How the results depend on the processing

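With windows of 3 kb, alternate and beta promoters with a peak numbered 3 in D1 SS, D1 SC and D2 CS, 8 in D1 CS and D2 SC, 5 in D2 SS and 10 in D2 CC. By the authors' gene names they numbered 1 (Pcdhga4) in D1 SS, D1 SC and D2 CS. At a q of at most 1e-05 they numbered 2 in D1 CS and 6 in D1 CC, C-type promoters 2 in D1 SS, and member peaks covered 1314 bp in D1 SS. At equal list length the alternate and beta count was 1 in D1 CS and 0 in D1 CC, D2 SS, D2 SC and D2 CC, and covered length 5812 bp in D1 CC and 3468 bp in D2 SC. The share of named member peaks found in another list became 28.6% for D1 SS peaks in D1 CS, D1 CC and D2 SS, and 37.5% for D1 SC peaks in D1 CS, D1 CC and D2 SC, with a reciprocal overlap of 50%. At equal length it was 83.3% for D1 CC peaks in D1 SS and 100% for D1 CC in D1 SC, D1 CS and D2 CC, for D2 SC in D2 SS, D2 CS and D1 SC, for D2 SS in D2 CS and for D2 CC in D2 SS, D2 CS and D1 CC. With a peak allowed within 1 kb, 100% of D1 CS peaks were found in D1 CC. With windows of 250 bp the alpha count in D1 SS was 1 in place of 2 (Pcdhac2 was lost), and no other count changed by over 1.5 times. No paired analysis was possible because the lists hold no column per library, and leaving out a library was not run for the same reason. The causes of these shifts were not tested. Fold and q were called at a depth that the lists do not give, so a missing peak is not evidence of closed chromatin.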

Other observations

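The beta cluster was compared with other stretches that have no peak in any list. Of 94472 gaps between merged regions, with a median of 12.9 kb, 250 were at least as long as the 379 kb beta gap and 30 enclosed at least its 23 protein-coding genes. By their most frequent gene family, 15 of those 30 were olfactory receptor (Olfr) gaps, 3 were vomeronasal receptor (Vmn) gaps and 5 held mainly predicted genes, and the beta gap was the only one led by protocadherins.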
